A study of Mus musculus with 48 samples.

Results

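Knee joints of mice that had been loaded repeatedly and left untreated were compared with knee joints of healthy mice. The samples were chosen by their titles: 12 untreated joints of the post-traumatic osteoarthritis (PTOA) group and 12 healthy untreated joints, 24 of the 48 samples of the series. All 24 are labelled as knee joints of male C57BL/6 mice aged 3 months. In the loaded group, loading began at 8 weeks of age, with 500 cycles of compression at 9 N, applied 5 times per week for 4 weeks. It is a noninvasive model in which injury builds up without surgery. Loaded untreated joints received no nanoparticle and no siRNA, and healthy joints received neither loading nor treatment. A sham-loaded group is not described in the labels, so handling and loading differ together. The labels also do not say how long after the last loading the joints were taken, or how many animals stand behind the 12 samples of each group. The p-values therefore cover only the variation among the samples as given, some of which may be technical.

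RNA came from equal masses of synovial tissue and of cartilage with the bone beneath it, and single RNA molecules were counted with barcoded probes on the nCounter system of NanoString, without amplification. Counts were divided, sample by sample, by a factor formed from 6 housekeeping genes (Gapdh, Pgk1, Hprt, Gusb, Cltc and Tubb5, as a geometric mean), and the quotients are called normalized counts here. Of 248 endogenous genes on the panel, 196 had over 20 counts in at least 12 of the 48 samples and were tested. A gene is said to have risen or fallen in loaded joints where its Benjamini-Hochberg adjusted p over the 196 genes was under 0.05 in edgeR's quasi-likelihood test, and a positive log2 fold change means a higher level in loaded joints. In a mixture of tissues, fewer cells of a type and less RNA per cell cannot be told apart. Genes that define cartilage and synovial lining, such as Col2a1, Acan and Prg4, were not among the genes analysed here, so the labelled tissue could not be checked against them.

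In an injured joint, cells of the synovium and the cartilage release chemokines, cytokines and matrix-degrading enzymes, and monocytes that follow the chemokines become macrophages in the lining. Fragments of matrix and damaged cells are sensed by toll-like receptors and by complement, and type I interferon signals through STAT2 to a set of antiviral genes. Prostaglandins and leukotrienes, which are lipids made from arachidonic acid, take part in pain and swelling.

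In loaded joints 91 of the 196 genes differed, or 46.4%. Of these, 62 had risen (31.6%) and 29 had fallen (14.8%). At an unadjusted p under 0.05 there were 109 genes. By their fitted fold changes, 12 genes rose by over 4-fold, 20 by 2-fold to 4-fold and 30 by less than 2-fold, whereas 3 genes fell by over 2-fold and 26 by less. Among these, Ptgs2, Masp1, Arg1, Ccl4 and Cxcl2 were near background in healthy joints and Retnla in loaded joints. The bounds given for these genes below are smaller. Il6 was near background in healthy joints too, and no bound above 1 could be formed for it. The median log2 fold change over all 196 genes was 0.15. Of the 62 genes that rose, 48 had all 12 loaded samples above the healthy median. Of the 29 that fell, 20 had all 12 loaded samples below it. Over all 196 genes, 74 had all 12 loaded samples on 1 side of it. The genes that rose or fell were picked by a test on these same samples. The 24 samples separated without any overlap for 5 genes (2.55%), Masp1, Ptgs2, Tgfb3, Oas1a and Oas2, all of them higher in loaded joints.

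**Figure D1:**
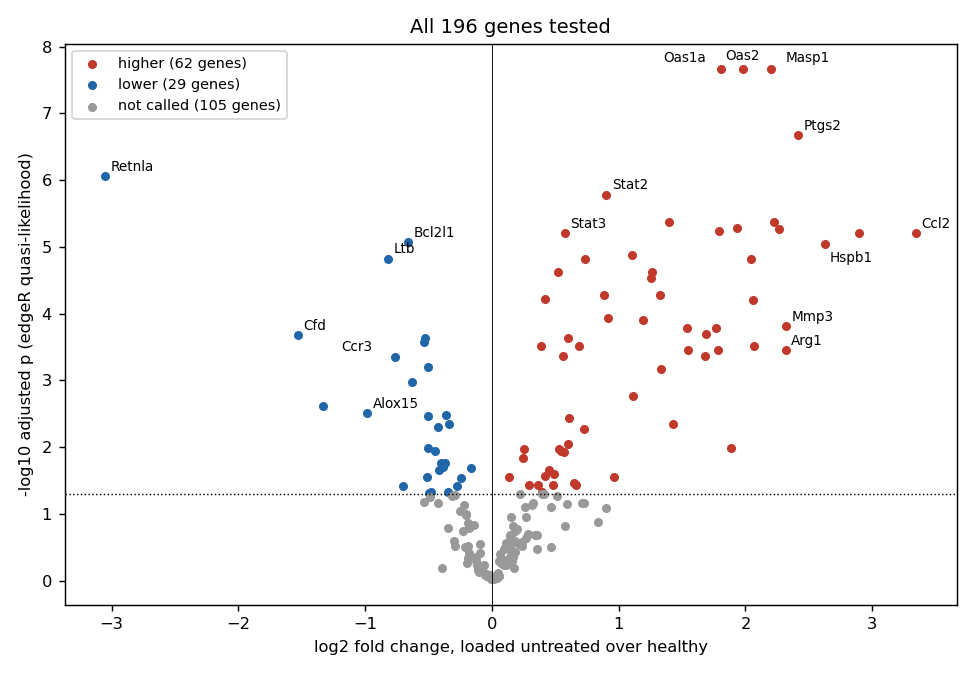
Log2 fold change of loaded untreated over healthy joints (x axis) against the negative log10 of the adjusted p (y axis) for the 196 genes tested, 1 point per gene, with a dotted line at an adjusted p of 0.05. The 62 genes that rose reach further from 0 than the 29 that fell, with Retnla as the exception at -3.05.

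The genes were also read in groups by their role. By median log2 fold change, interferon response genes and chemokines stood highest, and groups of signalling kinases, NF-kB components and lipid mediators lay near the median of all genes. Every group except the matrix metalloproteinases, of which 2 were measured, held genes that did not pass the test. Other scalings moved the median of all 196 genes too, to -0.05 under TMM scaling, -0.04 with DESeq2 size factors and 0.003 with total-count scaling.

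**Figure D2:**
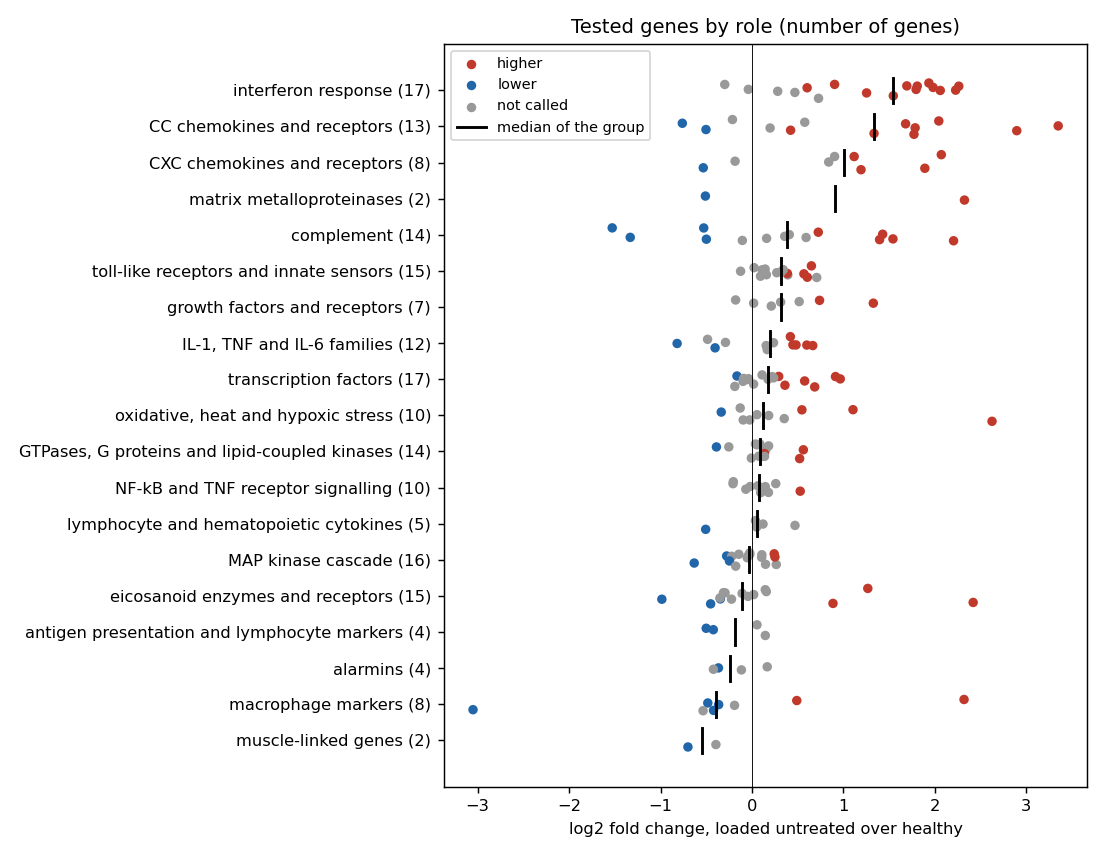
Log2 fold change of loaded untreated over healthy joints for each tested gene, 1 point per gene, in rows by role with the number of genes tested, and a bar at each row's median. The interferon response row has its median at 1.54 and no gene that fell, while the macrophage row spans -3.05 to 2.32.

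Of 17 interferon response genes tested, 12 rose (70.6%, against 31.6% of all genes), none fell (against 14.8%) and 5 did not pass. The median log2 fold change was 1.54, against 0.15 over all genes. Oas1a and Oas2 encode enzymes that sense double-stranded RNA and switch on the breakdown of RNA in the cell. Oas1a had 576 to 1162 normalized counts in loaded joints (median 853) and 132 to 544 in healthy joints (median 187). The groups did not overlap (log2 fold change 1.81 ± 0.23 SE, adjusted p = 2.2e-08). Oas2 had 131 to 283 normalized counts in loaded joints (median 201) and 16.1 to 117 in healthy joints (median 41), again without overlap (log2 fold change 1.98 ± 0.24 SE, adjusted p = 2.2e-08). Stat2, which carries the type I interferon signal to the nucleus, had 278 to 517 normalized counts in loaded joints (median 384) and 140 to 287 in healthy joints (median 193) (log2 fold change 0.90 ± 0.14 SE, adjusted p = 1.65e-06). All but 1 of its loaded samples lay above the highest healthy sample.

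The interferon-induced Ifit genes, whose proteins bind foreign RNA, rose by log2 fold changes of 2.23 ± 0.36 (Ifit3), 2.06 ± 0.41 (Ifit1) and 1.69 ± 0.37 (Ifit2). Ifi44, another interferon-induced gene, rose by 2.26 ± 0.38 and Oasl1, a relative of the Oas genes, by 1.79 ± 0.30. Irf7, the transcription factor that amplifies interferon production, had 538 to 2040 normalized counts in loaded joints (median 1170) and 110 to 855 in healthy joints (median 199) and rose by 1.93 ± 0.32 (adjusted p = 5.21e-06). In 9 of 12 loaded samples Irf7 lay above the highest healthy sample. Iigp1, an interferon-inducible GTPase that attacks the vacuoles of intracellular parasites, rose by 1.54 ± 0.35, and Mx2, an antiviral GTPase, by 1.25 ± 0.24. Mx1 did not pass, at 0.73 (95% interval 0.05 to 1.41). The regulators Irf1, Irf3 and Irf5 did not pass either, and Irf5 had the narrowest interval of the 5, at -0.04 (95% interval -0.36 to 0.28). Ifi27l2a had the widest, from -0.30 to 1.24. The interferon genes themselves were not tested: Ifna1 and Ifnb1 lay above the negative controls in 3 and 0 of 12 loaded samples, against 2 and 2 of 12 healthy samples, and Ifng in 4 against 6.

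Because type I interferon acts through a known DNA element, the promoters of the genes that rose were read for it. The search used the letters GAAANNGAAA, the core of the interferon-stimulated response element, on both strands, in the 300 bases from 250 before to 50 after the annotated start in the RefSeq table of GRCm38.p6. Among the 32851 promoters listed there, 3.44% hold it, and 3.99% of the 27025 genes listed have a promoter that holds it. The counts that follow are of genes. Of the 196 tested genes, 145 had an entry, and 11 of these held the element (7.59%). It was held by 6 of the 43 genes that rose and had an entry. Of the 12 interferon response genes that rose, 8 had an entry, and 4 of these held the element: Ifit1, Ifit3, Oas1a and Stat2. Among the genes that rose outside that group, 2 of 35 held it. Of the chemokines that rose, Cxcl10 held it. Among the genes that did not pass and had an entry, 5 of 79 held it (6.33%), such as Ccl19, Myd88 and Tlr6. Of the 23 genes that fell and had an entry, 0 held it. The 4 promoters below are those of the interferon response genes with 2 matches each and of Cxcl10, printed on the strand of the gene, with the matches in capitals. A match on the other strand appears as its reverse complement, TTTCNNTTTC. In Oas1a the pair of matches overlaps.
Ifit1 (chr19:34640639-34640938, plus strand): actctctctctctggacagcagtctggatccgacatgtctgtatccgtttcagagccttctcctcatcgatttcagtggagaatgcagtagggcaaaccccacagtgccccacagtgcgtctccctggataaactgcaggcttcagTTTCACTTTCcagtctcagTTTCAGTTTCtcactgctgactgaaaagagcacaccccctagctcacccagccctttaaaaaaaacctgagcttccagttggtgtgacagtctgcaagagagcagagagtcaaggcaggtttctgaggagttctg
Ifit3 (chr19:34583279-34583578, plus strand): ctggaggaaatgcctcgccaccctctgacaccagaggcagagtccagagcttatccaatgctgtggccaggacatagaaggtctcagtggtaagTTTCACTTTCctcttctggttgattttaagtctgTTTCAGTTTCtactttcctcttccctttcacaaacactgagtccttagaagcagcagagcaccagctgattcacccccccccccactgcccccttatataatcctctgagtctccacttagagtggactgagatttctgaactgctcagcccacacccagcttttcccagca
Oas1a (chr5:120907476-120907775, minus strand): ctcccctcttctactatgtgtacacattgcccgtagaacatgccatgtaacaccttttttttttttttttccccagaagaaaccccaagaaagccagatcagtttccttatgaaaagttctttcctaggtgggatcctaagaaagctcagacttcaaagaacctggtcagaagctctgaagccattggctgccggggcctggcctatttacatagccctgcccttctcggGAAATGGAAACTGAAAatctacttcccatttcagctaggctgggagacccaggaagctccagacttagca
Cxcl10 (chr5:92348840-92349139, minus strand): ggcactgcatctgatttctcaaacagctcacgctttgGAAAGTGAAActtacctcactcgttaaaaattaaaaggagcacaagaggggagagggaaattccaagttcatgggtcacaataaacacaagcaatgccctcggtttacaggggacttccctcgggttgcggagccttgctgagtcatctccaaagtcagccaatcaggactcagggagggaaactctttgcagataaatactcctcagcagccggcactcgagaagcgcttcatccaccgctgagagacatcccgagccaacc

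CC chemokines and their receptors guide monocytes, lymphocytes and eosinophils. They rose in 8 of 13 cases (61.5%, against 31.6% of all genes) and fell in 2 (15.4%, against 14.8%). Their median log2 fold change was 1.33, or 0.88 with genes near background at the lower bound of their change. Ccl2, the main attractant of monocytes, had 418 to 5603 normalized counts in loaded joints (median 1931) and 18.8 to 1205 in healthy joints (median 105). In 8 of 12 loaded samples it lay above the highest healthy sample, which was healthy replicate 5. Its log2 fold change was 3.35 ± 0.57 (adjusted p = 6.22e-06), and 4.20 without that replicate. Ccl7, a close relative that acts on the same receptor, had 96.1 to 971 normalized counts in loaded joints (median 376) and 10.2 to 267 in healthy joints (median 28.5) (log2 fold change 2.89 ± 0.49 SE, adjusted p = 6.22e-06), and its log2 fold change was 3.57 without healthy replicate 5. Ccl5, which attracts T cells, had 278 to 2745 normalized counts in loaded joints (median 900) and 126 to 514 in healthy joints (median 217), with 10 of 12 loaded samples above all healthy samples (log2 fold change 2.04 ± 0.37 SE, adjusted p = 1.49e-05).

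Ccl21a, which draws dendritic cells and T cells into lymphatic vessels, had 1045 to 3266 normalized counts in loaded joints (median 1451) and 130 to 1047 in healthy joints (median 483), with 11 of 12 loaded samples above all healthy ones (log2 fold change 1.77 ± 0.38 SE, adjusted p = 0.000165). Ccl8, of the same gene cluster as Ccl2, rose by 1.68 ± 0.39. Ccl3, which attracts macrophages, had 57.8 to 281 normalized counts in loaded joints (median 103) and 29.3 to 116 in healthy joints (median 46.7) and rose by 1.33 ± 0.33. Its relative Ccl4 had 16.1 to 91.1 normalized counts in loaded joints (median 29.7) and 3.56 to 33 in healthy joints (median 9.55). Only 3 of 12 healthy samples were above the negative controls for Ccl4, against 12 of 12 loaded samples, so its change is given as a bound, at least 1.84-fold higher (adjusted p = 0.000353).

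Of the 4 receptors, 1 rose (against 31.6% of all genes) and 2 fell (against 14.8%). Ccr2, the receptor of Ccl2 and Ccl7 on monocytes, had 1608 to 3274 normalized counts in loaded joints (median 2169) and 949 to 2444 in healthy joints (median 1600), with 3 of 12 loaded samples above all healthy ones (log2 fold change 0.42 ± 0.16 SE, adjusted p = 0.0272). Ccr3, the eosinophil receptor, had 39.4 to 87.4 normalized counts in loaded joints (median 55.3) and 72.3 to 146 in healthy joints (median 106), and 8 of 12 loaded samples lay below the lowest healthy sample (log2 fold change -0.76 ± 0.18 SE, adjusted p = 0.000441). Ccr7, the receptor for Ccl21a, had 19.8 to 46.5 normalized counts in loaded joints (median 36.8) and 19.6 to 67.9 in healthy joints (median 53.4) and overlapped throughout, with no loaded sample below the healthy range (log2 fold change -0.50 ± 0.14 SE, adjusted p = 0.00337). Ccr1 did not pass, at 0.20 (95% interval -0.04 to 0.44), and neither did Ccl19, at -0.21 (95% interval -0.57 to 0.14). Ccl11, a ligand of Ccr3, had the widest interval, from -0.10 to 1.25.

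Among 8 CXC chemokines and receptors, 4 ligands rose (50%, against 31.6% of all genes) and 1 receptor fell (12.5%, against 14.8%). The median log2 fold change was 1.01, or 0.75 with genes near background at their bounds. Cxcl9 and Cxcl10 are induced by interferon and attract T cells. Cxcl9 had 147 to 628 normalized counts in loaded joints (median 239) and 56.9 to 209 in healthy joints (median 112), with 9 of 12 loaded samples above the healthy range (log2 fold change 1.19 ± 0.25 SE, adjusted p = 0.000126). Cxcl10 had 104 to 667 normalized counts in loaded joints (median 272) and 19.6 to 387 in healthy joints (median 40.3), and only 3 of 12 loaded samples lay above the healthy range, whose top was healthy replicate 5. Its log2 fold change was 2.07 ± 0.47 (adjusted p = 0.000306), and 2.85 without that replicate. The neutrophil attractant Cxcl5 had 28.1 to 129 normalized counts in loaded joints (median 66.4) and 13.7 to 56.2 in healthy joints (median 31.1) (log2 fold change 1.12 ± 0.29 SE, adjusted p = 0.00169). Cxcl2, which acts on the same receptor, had 4.49 to 111 normalized counts in loaded joints (median 23.3) and 1.3 to 17.5 in healthy joints (median 6.93). It was above the negative controls in 8 of 12 loaded samples, against 2 of 12 healthy samples, and was at least 1.58-fold higher (adjusted p = 0.0104). Cxcl1 and Cxcl3, ligands of the same kind, did not pass. Each was above the negative controls in only 3 of 12 healthy samples, so no interval is given for them. Their receptor gene Cxcr2 did not pass either, at -0.18 (95% interval -0.48 to 0.11). Cxcr4, which holds leukocytes in bone marrow, had 600 to 1319 normalized counts in loaded joints (median 1006) and 952 to 1794 in healthy joints (median 1485), with 3 of 12 loaded samples below the healthy range (log2 fold change -0.53 ± 0.12 SE, adjusted p = 0.000268).

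**Figure D3:**
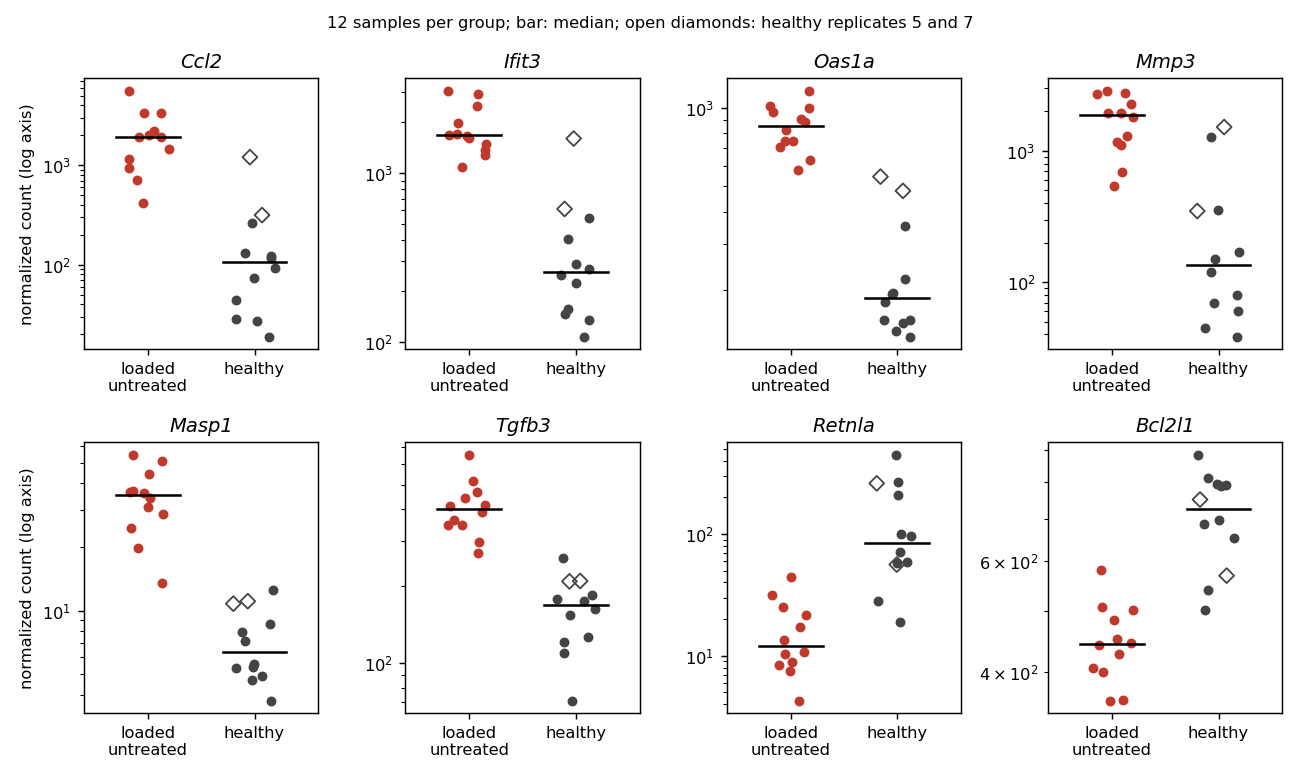
Normalized counts on a log axis of 8 genes in 12 loaded untreated and 12 healthy joints, 1 point per sample, with bars at the medians and open diamonds for healthy replicates 5 and 7. Oas1a, Masp1 and Tgfb3 separate completely, and Retnla and Bcl2l1 are lower in loaded joints. For Ccl2 and Ifit3 healthy replicate 5 lies inside the loaded range, whereas healthy replicate 7 lies below it. For Mmp3 some healthy samples lie inside the loaded range.

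The measured matrix metalloproteinases moved in opposite directions. Mmp3, which degrades proteoglycans and activates other metalloproteinases, had 544 to 2868 normalized counts in loaded joints (median 1873) and 38.2 to 1518 in healthy joints (median 135). In 7 of 12 loaded samples it lay above the highest healthy sample, although 2 healthy samples reached levels inside the loaded range (log2 fold change 2.32 ± 0.49 SE, adjusted p = 0.000155). On the log2(value + 1) scale of limma its difference was 3.23. Mmp9, a gelatinase of neutrophils, had 1566 to 4223 normalized counts in loaded joints (median 2518) and 1659 to 5045 in healthy joints (median 3948) (log2 fold change -0.51 ± 0.19 SE, adjusted p = 0.0285). The groups overlapped, and the call was lost without loaded replicate 7 (adjusted p = 0.0549), loaded replicate 8 (0.0585) or healthy replicate 8 (0.05004), and without Gusb in the scaling (0.0621).

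Of 14 complement genes tested, 5 rose (35.7%, against 31.6% of all genes) and 4 fell (28.6%, against 14.8%), and the median log2 fold change was 0.38. Masp1, a protease of the lectin pathway, had 13.4 to 54.7 normalized counts in loaded joints (median 35.1) and 3.73 to 12.4 in healthy joints (median 6.39). It was above the negative controls in 12 of 12 loaded samples, against 1 of 12 healthy samples, so it is given as at least 1.8-fold higher (adjusted p = 2.2e-08), and the groups did not overlap. C2, which forms the convertase of the classical and lectin pathways, had 131 to 361 normalized counts in loaded joints (median 205) and 37.5 to 154 in healthy joints (median 79.3) (log2 fold change 1.39 ± 0.23 SE, adjusted p = 4.23e-06). C3ar1, the receptor for the fragment C3a, had 1138 to 3624 normalized counts in loaded joints (median 1672) and 155 to 2176 in healthy joints (median 422), with only 2 of 12 loaded samples above the healthy range (log2 fold change 1.54 ± 0.33 SE, adjusted p = 0.000165). Cfb, a component of the alternative pathway, rose by 1.43 ± 0.42, and C1ra, a protease of the first component, by 0.72 ± 0.22.

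The complement genes that fell were C3, Cfd, C7 and Cd55. C3, the central component, had 1337 to 2183 normalized counts in loaded joints (median 1904) and 1699 to 4774 in healthy joints (median 2500), with 1 of 12 loaded samples below the healthy range (log2 fold change -0.53 ± 0.12 SE, adjusted p = 0.000235). Cfd encodes factor D, which fat cells secrete. It had 315 to 1374 normalized counts in loaded joints (median 900) and 321 to 5531 in healthy joints (median 2761), and 1 of 12 loaded samples lay below the healthy range (log2 fold change -1.53 ± 0.33 SE, adjusted p = 0.000211). C7, part of the membrane attack complex, had 7.48 to 87.9 normalized counts in loaded joints (median 23.8) and 29.9 to 170 in healthy joints (median 57.1) (log2 fold change -1.33 ± 0.36 SE, adjusted p = 0.00241), and 7 of 12 loaded samples lay below the healthy range. Cd55, which protects cells from complement, fell by 0.50 on the log2 scale (adjusted p = 0.0496). C6, which assembles with C7, did not pass, at 0.16 (95% interval -0.16 to 0.48), and neither did C1qa, at 0.41 (95% interval 0.06 to 0.76). C1s had the widest interval, from 0.03 to 1.15.

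Of the 12 genes of the interleukin-1, TNF and interleukin-6 families, 5 rose (41.7%, against 31.6% of all genes) and 2 fell (16.7%, against 14.8%). The median log2 fold change was 0.20. Under TMM scaling, with DESeq2 size factors and with total-count scaling 2 were higher and 4 lower. The medians there were 0.01, 0.03 and 0.07. Over all 196 genes the numbers higher and lower were 47 and 51, 47 and 50, and 51 and 45. Il1rap, the shared accessory chain of the interleukin-1 receptor, had 89.6 to 133 normalized counts in loaded joints (median 108) and 63.2 to 104 in healthy joints (median 84.3), with 11 of 12 loaded samples above the healthy range (log2 fold change 0.42 ± 0.08 SE, adjusted p = 6.03e-05). Il1r1, the signalling receptor, had 163 to 313 normalized counts in loaded joints (median 226) and 124 to 226 in healthy joints (median 148) (log2 fold change 0.60 ± 0.13 SE, adjusted p = 0.000236). Il1rn, the natural antagonist, had 27.2 to 55.5 normalized counts in loaded joints (median 37.1) and 18.2 to 37.2 in healthy joints (median 27.5) (log2 fold change 0.45 ± 0.16 SE, adjusted p = 0.0219). Il1b itself rose by 0.48 ± 0.19 (adjusted p = 0.0371). Il6 was called higher (adjusted p = 0.0374), at 11.2 to 26.9 normalized counts (median 19.2) in loaded joints, against 4.08 to 19.6 (median 13.7) in healthy joints, but 5 of 12 healthy samples were above the negative controls and no bound above 1 could be formed. Ltb, a lymphotoxin subunit that organises lymphoid tissue, had 97.7 to 172 normalized counts in loaded joints (median 128) and 143 to 300 in healthy joints (median 224), and 9 of 12 loaded samples lay below the healthy range (log2 fold change -0.82 ± 0.15 SE, adjusted p = 1.49e-05). Il18rap, an accessory chain of the interleukin-18 receptor, had 91.9 to 154 normalized counts in loaded joints (median 130) and 94.3 to 232 in healthy joints (median 164) (log2 fold change -0.40 ± 0.14 SE, adjusted p = 0.0174). Tnf did not pass, at 0.17 (95% interval -0.20 to 0.53). Tnfsf14 had the narrowest interval of the 5 that did not pass, from -0.54 to -0.04, and Il1a the widest, from -0.92 to -0.05.

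Of 22 lymphocyte and hematopoietic cytokine genes on the panel, 17 were too low to be tested, among them Il2, Il4, Il10, Il17a and Il22. Of the 5 tested, Il12a, a subunit of interleukin-12, was the only one called, and it fell (20%, against 14.8% of all genes). It had 52.4 to 97.7 normalized counts in loaded joints (median 60.8) and 72.4 to 124 in healthy joints (median 90.5), and 9 of 12 loaded samples lay below the healthy range (log2 fold change -0.51 ± 0.12 SE, adjusted p = 0.000641). The T-cell growth factor genes Il7 and Il15 did not pass, at 0.05 (95% interval -0.21 to 0.31) and 0.04 (95% interval -0.32 to 0.39). Csf1, the growth factor of macrophages, had the widest interval, from 0.02 to 0.92.

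Of 15 toll-like receptors and other innate sensors tested, 4 rose (26.7%, against 31.6% of all genes), none fell (against 14.8%) and 11 did not pass. The median was 0.32. Under TMM scaling and with DESeq2 size factors 2 were higher and 1 lower, against 47 and 51, and 47 and 50, of all 196 genes. With total-count scaling 3 were higher and none lower, against 51 and 45 of all 196. Nod1, which senses bacterial cell walls inside the cell, had 146 to 264 normalized counts in loaded joints (median 184) and 119 to 179 in healthy joints (median 144), with 8 of 12 loaded samples above the healthy range (log2 fold change 0.39 ± 0.09 SE, adjusted p = 0.000311). Tlr5, the flagellin receptor, had 15.5 to 34.1 normalized counts in loaded joints (median 24.2) and 10.6 to 26.1 in healthy joints (median 15.4) (log2 fold change 0.60 ± 0.17 SE, adjusted p = 0.00371), and Tlr1, a partner of Tlr2, had 118 to 258 normalized counts in loaded joints (median 167) and 73 to 193 in healthy joints (median 113) (log2 fold change 0.57 ± 0.19 SE, adjusted p = 0.0117). Ly96, the co-receptor of Tlr4, rose by 0.65 ± 0.25. Tlr4 itself did not pass, at 0.34 (95% interval -0.11 to 0.80), and neither did Tlr2, at 0.14 (95% interval -0.10 to 0.38). Tollip, an inhibitor of these receptors, had the narrowest interval, from -0.07 to 0.25, and Tlr9, the receptor for DNA, had the widest, from 0.05 to 1.37. The shared adaptor Myd88 lay at 0.39 (95% interval 0.05 to 0.73) (adjusted p = 0.0503).

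In the NF-kB and TNF receptor pathway 1 of 10 genes rose with housekeeping scaling (10%, against 31.6% of all genes) and none fell (against 14.8%). Under TMM scaling and with DESeq2 size factors 4 were lower, and 3 with total-count scaling, with 1 higher in each. Of all 196 genes, 51, 50 and 45 were lower under these scalings, and 47, 47 and 51 higher. The median log2 fold change was 0.08, and it turned to -0.11 under TMM scaling, -0.10 with DESeq2 size factors and -0.06 with total-count scaling. Daxx, which binds the death receptor Fas and also works in chromatin, had 76.1 to 124 normalized counts in loaded joints (median 96.2) and 39.1 to 104 in healthy joints (median 65.1) (log2 fold change 0.53 ± 0.17 SE, adjusted p = 0.0107), with 5 of 12 loaded samples above the healthy range. Rela, the main activating subunit of NF-kB, had the narrowest interval of all genes not called, from -0.06 to 0.19 around 0.07. Traf2, an adaptor of TNF receptors, lay at -0.02 (95% interval -0.17 to 0.13), Nfkb1 at -0.07 (95% interval -0.28 to 0.15) and the inhibitor Tnfaip3 at -0.21 (95% interval -0.42 to 0.01). Ripk1 had the widest interval of the group, from -0.19 to 0.38.

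Of 16 genes of the MAP kinase cascade 2 rose (12.5%, against 31.6% of all genes) and 3 fell (18.75%, against 14.8%), with a median of -0.03. The increases depended on the scaling. None was higher and 5 were lower under TMM scaling (median -0.25), with DESeq2 size factors (-0.24) and with total-count scaling (-0.20). Of all 196 genes, 47, 47 and 51 were higher and 51, 50 and 45 lower there, with medians of -0.05, -0.04 and 0.003. Mapk8, the stress kinase JNK1, had 172 to 275 normalized counts in loaded joints (median 217) and 143 to 254 in healthy joints (median 172) (log2 fold change 0.25 ± 0.08 SE, adjusted p = 0.0107), and 1 of 12 loaded samples lay above the healthy range. Rapgef2, an activator of the GTPase Rap, had 219 to 301 normalized counts in loaded joints (median 245) and 167 to 279 in healthy joints (median 201) (log2 fold change 0.24 ± 0.08 SE, adjusted p = 0.0146). Map2k6, which activates p38, had 44 to 78.6 normalized counts in loaded joints (median 59.3) and 46.6 to 220 in healthy joints (median 87.6) (log2 fold change -0.63 ± 0.16 SE, adjusted p = 0.00105). Mknk1, a kinase that phosphorylates a translation initiation factor, had 202 to 266 normalized counts in loaded joints (median 239) and 235 to 339 in healthy joints (median 294) (log2 fold change -0.25 ± 0.09 SE, adjusted p = 0.0291). Map3k1, a kinase upstream of JNK, fell by 0.28 on the log2 scale (adjusted p = 0.0379). Mapk14, the p38 kinase downstream of Map2k6, did not pass, at -0.02 (95% interval -0.20 to 0.15), and the adaptor gene Grb2 lay at -0.02 (95% interval -0.20 to 0.15). Rps6ka5 had the widest interval, from -0.52 to 0.16.

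Of 17 transcription factors and regulators of transcription, 6 rose (35.3%, against 31.6% of all genes) and 1 fell (5.88%, against 14.8%). Their median was 0.18, and it turned to -0.10 under TMM scaling, -0.09 with DESeq2 size factors and -0.05 with total-count scaling. The calls became 3 higher and 3 lower under TMM scaling, and 3 higher and 2 lower under each of the others. For all 196 genes they became 47 and 51, 47 and 50, and 51 and 45. Stat3, which transmits signals of interleukin-6 and related cytokines, had 919 to 1216 normalized counts in loaded joints (median 1101) and 564 to 946 in healthy joints (median 707). In 11 of 12 loaded samples it lay above the highest healthy sample (log2 fold change 0.58 ± 0.10 SE, adjusted p = 6.22e-06). Fos, an immediate-early gene and part of AP-1, had 252 to 505 normalized counts in loaded joints (median 324) and 71 to 320 in healthy joints (median 161), with 8 of 12 loaded samples above the healthy range (log2 fold change 0.91 ± 0.19 SE, adjusted p = 0.000117). Tcf4, a helix-loop-helix factor that plasmacytoid dendritic cells depend on, had 640 to 1160 normalized counts in loaded joints (median 849) and 352 to 743 in healthy joints (median 523) (log2 fold change 0.69 ± 0.16 SE, adjusted p = 0.000306). Jun, the partner of Fos, rose by 0.96 ± 0.37, Mef2d by 0.36 ± 0.14 and Cebpb, a factor of the acute phase response, by 0.29 ± 0.12. Atf2, which is activated by stress kinases, had 466 to 666 normalized counts in loaded joints (median 575) and 557 to 740 in healthy joints (median 666) (log2 fold change -0.16 ± 0.06 SE, adjusted p = 0.0208), with 4 of 12 loaded samples below the healthy range. Nr3c1, the glucocorticoid receptor, and Myc did not pass, at 0.11 (95% interval -0.06 to 0.28) and -0.06 (95% interval -0.23 to 0.12). Mef2c had the widest interval, from -0.44 to 0.79.

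Among 10 genes of oxidative, heat and hypoxic stress, 3 rose (30%, against 31.6% of all genes) and 1 fell (10%, against 14.8%). Their median of 0.12 turned to -0.08 under TMM scaling, -0.07 with DESeq2 size factors and -0.03 with total-count scaling. Under each 2 were higher and 2 lower, against 47 and 51, 47 and 50, and 51 and 45 of all 196 genes. Hspb1, a small heat shock chaperone, had 306 to 2647 normalized counts in loaded joints (median 902) and 41 to 544 in healthy joints (median 109), with 7 of 12 loaded samples above the healthy range (log2 fold change 2.62 ± 0.46 SE, adjusted p = 9.19e-06). Hif1a, which responds to low oxygen, had 718 to 1542 normalized counts in loaded joints (median 1327) and 421 to 887 in healthy joints (median 561), with 10 of 12 above that range (log2 fold change 1.10 ± 0.20 SE, adjusted p = 1.33e-05). Maff and Mafk encode small Maf proteins that pair with the antioxidant regulator Nfe2l2, and they moved in opposite directions. Maff had 14.9 to 32.9 normalized counts in loaded joints (median 26.3) and 11.4 to 26.8 in healthy joints (median 17.1) (log2 fold change 0.55 ± 0.18 SE, adjusted p = 0.0115), and Mafk had 76.9 to 136 normalized counts in loaded joints (median 108) and 106 to 163 in healthy joints (median 133) (log2 fold change -0.34 ± 0.10 SE, adjusted p = 0.0045). Nfe2l2 itself did not pass, at -0.10 (95% interval -0.25 to 0.05), and neither did its inhibitor Keap1, at 0.18 (95% interval -0.16 to 0.52). Hspb2, a chaperone of muscle, had the widest interval, from -0.27 to 0.97.

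Alarmins are nuclear proteins that act as danger signals once released. Of 4 tested genes of alarmins and their receptor, Hmgb1 fell (25%, against 14.8% of all genes) and none rose (against 31.6%). Hmgb1 had 766 to 1264 normalized counts in loaded joints (median 992) and 987 to 1594 in healthy joints (median 1286) (log2 fold change -0.37 ± 0.13 SE, adjusted p = 0.0173). Its relative Hmgb2 lay lower too but did not pass, at -0.42 (95% interval -0.81 to -0.03). Hmgn1 lay at 0.17 (95% interval -0.03 to 0.36) and the receptor gene Ager at -0.12 (95% interval -0.46 to 0.23).

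Eicosanoid genes moved both ways, with 3 of 15 risen (20%, against 31.6% of all genes) and 3 fallen (20%, against 14.8%). Their median was -0.11. Under TMM scaling, with DESeq2 size factors and with total-count scaling 3 were higher and 5 lower. The same scalings gave 47 and 51, 47 and 50, and 51 and 45 over all 196 genes. Ptgs2, the inducible enzyme of prostaglandin synthesis, had 21.8 to 94.2 normalized counts in loaded joints (median 41.6) and 2.68 to 15 in healthy joints (median 7.64). Only 2 of 12 healthy samples were above the negative controls for it, against 12 of 12 loaded samples, so it was at least 2.45-fold higher (adjusted p = 2.11e-07), and the groups did not overlap. Cysltr1, a leukotriene receptor, had 47.7 to 173 normalized counts in loaded joints (median 101) and 21.4 to 76.7 in healthy joints (median 36.1) (log2 fold change 1.27 ± 0.24 SE, adjusted p = 2.42e-05). Ptgfr, a prostaglandin receptor, had 86.7 to 154 normalized counts in loaded joints (median 117) and 30.7 to 90.2 in healthy joints (median 65.8) (log2 fold change 0.89 ± 0.17 SE, adjusted p = 5.25e-05), with 11 of 12 loaded samples above the healthy range. The lipoxygenase genes lay lower. Alox15 had 95.8 to 372 normalized counts in loaded joints (median 181) and 125 to 733 in healthy joints (median 373) (log2 fold change -0.99 ± 0.28 SE, adjusted p = 0.00312). Alox5, which starts leukotriene synthesis, had 112 to 265 normalized counts in loaded joints (median 201) and 154 to 356 in healthy joints (median 294) (log2 fold change -0.45 ± 0.15 SE, adjusted p = 0.0115). Ltb4r1, the receptor for leukotriene B4, had 153 to 362 normalized counts in loaded joints (median 288) and 200 to 469 in healthy joints (median 374) (log2 fold change -0.35 ± 0.14 SE, adjusted p = 0.0469). Pla2g4a, which frees arachidonic acid, did not pass and had the narrowest interval, from -0.05 to 0.34. The constitutive enzyme gene Ptgs1 did not pass either, at -0.35 (95% interval -0.77 to 0.07), and Alox12 had the widest interval, from -0.77 to 0.18.

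Of 14 genes for GTPases, G proteins and the kinases coupled to them, 3 rose (21.4%, against 31.6% of all genes) and 1 fell (7.14%, against 14.8%). The median of 0.09 turned to -0.11 under TMM scaling, -0.09 with DESeq2 size factors and -0.05 with total-count scaling. There 2 were higher, and 4 were lower under TMM scaling and with DESeq2 size factors and 2 with total-count scaling. For all 196 genes the numbers higher and lower were 47 and 51, 47 and 50, and 51 and 45. Ptk2, the focal adhesion kinase that reads matrix contact, had 139 to 213 normalized counts in loaded joints (median 167) and 93 to 155 in healthy joints (median 118), with 10 of 12 loaded samples above the healthy range (log2 fold change 0.52 ± 0.10 SE, adjusted p = 2.42e-05). Plcb1, a phospholipase that acts below G proteins, had 62.1 to 101 normalized counts in loaded joints (median 91.9) and 32.2 to 80.7 in healthy joints (median 61.9), also with 10 of 12 above that range (log2 fold change 0.56 ± 0.13 SE, adjusted p = 0.000425). Rac1, a GTPase of the cytoskeleton, had 2098 to 2393 normalized counts in loaded joints (median 2230) and 1726 to 2225 in healthy joints (median 2015) (log2 fold change 0.14 ± 0.05 SE, adjusted p = 0.0285). That small increase turned to -0.07 under TMM scaling, where it did not pass. Prkca, a protein kinase C, had 110 to 148 normalized counts in loaded joints (median 134) and 115 to 261 in healthy joints (median 175) (log2 fold change -0.39 ± 0.14 SE, adjusted p = 0.0198). Cdc42 did not pass, at 0.06 (95% interval -0.08 to 0.20), but was called lower under TMM scaling (-0.15, adjusted p = 0.0229) and with DESeq2 size factors (-0.13, adjusted p = 0.0275). Cfl1, which severs actin filaments, lay at 0.07 (95% interval -0.12 to 0.27), and Ppp1r12b, a subunit of myosin phosphatase, had the widest interval, from -0.65 to 0.72.

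Among 7 growth factors and receptors 2 rose (28.6%, against 31.6% of all genes) and none fell (against 14.8%), with a median of 0.31. Under TMM scaling, with DESeq2 size factors and with total-count scaling 1 was lower, against 51, 50 and 45 of all 196 genes. Tgfb3, a growth factor of the transforming growth factor beta family, which acts on cartilage and scar formation, had 269 to 655 normalized counts in loaded joints (median 400) and 70.8 to 258 in healthy joints (median 169). The groups did not overlap (log2 fold change 1.33 ± 0.26 SE, adjusted p = 5.25e-05). Flt1, a receptor of vascular endothelial growth factor, had 60.6 to 97.4 normalized counts in loaded joints (median 76.7) and 30.7 to 67.6 in healthy joints (median 45.3) (log2 fold change 0.74 ± 0.13 SE, adjusted p = 1.49e-05), and 8 of 12 loaded samples lay above the healthy range. The other family members did not pass: Tgfb1 lay at -0.18 (95% interval -0.39 to 0.04) and Tgfb2 at 0.52 (95% interval 0.06 to 0.97), although all 12 loaded samples of Tgfb2 lay above the healthy median. Smad7, an inhibitor of that pathway, lay at 0.02 (95% interval -0.24 to 0.27).

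Macrophage genes diverged. Of 8 tested, 2 rose (25%, against 31.6% of all genes), 4 fell (50%, against 14.8%) and 2 did not pass. The median was -0.39. Under TMM scaling and with DESeq2 size factors 1 was higher and 6 lower, and with total-count scaling 2 and 6. All 196 genes together gave 47 and 51, 47 and 50, and 51 and 45. Arg1, which consumes arginine in alternatively activated macrophages, had 21.3 to 260 normalized counts in loaded joints (median 108) and 2.68 to 67.1 in healthy joints (median 15.1). It was above the negative controls in 12 of 12 loaded samples, against 6 of 12 healthy samples, and was at least 3.79-fold higher (adjusted p = 0.000353). Retnla, a secreted protein of the same activation state in mice, had 4.24 to 44.4 normalized counts in loaded joints (median 12.1) and 19 to 449 in healthy joints (median 84). It was above the negative controls in 6 of 12 loaded samples, against 11 of 12 healthy samples, and was at least 7.67-fold lower in loaded joints (adjusted p = 8.81e-07). Trem2, a lipid-sensing receptor, had 77.3 to 254 normalized counts in loaded joints (median 128) and 40.4 to 156 in healthy joints (median 90.4) (log2 fold change 0.49 ± 0.18 SE, adjusted p = 0.0251), while Tyrobp, the adaptor through which it signals, had 4799 to 7796 normalized counts in loaded joints (median 6317) and 4466 to 10969 in healthy joints (median 8631) (log2 fold change -0.42 ± 0.15 SE, adjusted p = 0.0219). Mrc1, the mannose receptor, had 344 to 508 normalized counts in loaded joints (median 474) and 397 to 831 in healthy joints (median 604) (log2 fold change -0.36 ± 0.10 SE, adjusted p = 0.00333), and Cd163, a scavenger receptor for haemoglobin, fell by 0.48 on the log2 scale (adjusted p = 0.0475). Itgb2, an integrin subunit of all leukocytes, did not pass, at -0.19 (95% interval -0.41 to 0.02), and Chi3l3, a further gene of alternative activation, had the widest interval, from -1.03 to -0.04.

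Genes that mark particular cells were also read together. The summed normalized counts of 6 macrophage markers, C1qa, C1qb, Mrc1, Cd163, Trem2 and Tyrobp, ran from 9903 to 14422 in loaded joints (median 11481) and from 6751 to 17384 in healthy joints (median 12629), with 1 of 6 risen and 3 fallen. Tyrobp alone made up a median of 54.5% of the sum in loaded joints and 66.8% in healthy joints. For 4 genes of granulocytes (Cxcr2, Ccr3, Alox15 and Mmp9) the sums were 1965 to 5160 in loaded joints (median 3293) and 2259 to 6311 in healthy joints (median 5105), and 3 of 4 fell. Mmp9 made up a median of 77.4% of that sum in loaded joints and 77.5% in healthy joints. For lymphocyte and dendritic cell genes the sums were 1007 to 1706 in loaded joints (median 1185) and 883 to 2591 in healthy joints (median 1767), and all 4 tested members, Cd4, Ltb, Ccr7 and H2-Eb1, fell, while Cd40lg was not tested. H2-Eb1 made up a median of 75.1% of that sum in loaded joints and 69.5% in healthy joints, so each sum mostly follows 1 gene. The marker lists were chosen with earlier results of these data known. They leave out Cd86 and Cd40, 2 further genes of antigen presentation, which did not pass. Over all genes 31.6% rose and 14.8% fell. No marker was at 0 in any list, but no value of any probe was 0, so this does not speak to detection. What part these cells had in the changes of other genes was not tested.

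Of 4 genes of antigen presentation and lymphocytes 2 fell (50%, against 14.8% of all genes) and none rose (against 31.6%). H2-Eb1, an MHC class II gene, had 722 to 1286 normalized counts in loaded joints (median 910) and 589 to 2036 in healthy joints (median 1312) (log2 fold change -0.42 ± 0.13 SE, adjusted p = 0.00504), and Cd4 had 89.9 to 233 normalized counts in loaded joints (median 149) and 124 to 274 in healthy joints (median 216) (log2 fold change -0.50 ± 0.16 SE, adjusted p = 0.0104). The costimulatory genes Cd86 and Cd40 did not pass, at 0.15 (95% interval -0.16 to 0.46) and 0.05 (95% interval -0.39 to 0.50). Fxyd2, a subunit of the sodium pump, had 24.9 to 119 normalized counts in loaded joints (median 66.8) and 37.1 to 323 in healthy joints (median 92.7) (log2 fold change -0.70 ± 0.28 SE, adjusted p = 0.0379). Myl2, a myosin light chain of slow and heart muscle, had 15.2 to 520 normalized counts in loaded joints (median 39.7) and 10.7 to 788 in healthy joints (median 49.2) and the widest interval of all 196 genes, from -1.80 to 1.01.

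The remaining 3 tested genes belong to no group. Bcl2l1, which protects cells from apoptosis, had 359 to 580 normalized counts in loaded joints (median 443) and 501 to 885 in healthy joints (median 725), with 10 of 12 loaded samples below the healthy range (log2 fold change -0.66 ± 0.11 SE, adjusted p = 8.51e-06). Hsh2d, an adaptor of lymphocyte signalling, had 48.4 to 115 normalized counts in loaded joints (median 67.1) and 27.4 to 71.1 in healthy joints (median 61.5) (log2 fold change 0.40 ± 0.17 SE, adjusted p = 0.0474). Kng1, the precursor of bradykinin, did not pass, at -0.20 (95% interval -0.56 to 0.17).

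Of the 105 genes that did not pass, 4 (Cxcl1, Cxcl3, Elk1 and Nos2) were above the negative controls in at most 6 samples of a group, and no interval is read for them. For the other 101 the intervals say how large a change could have been missed with housekeeping scaling. They do not cover the choice of scaling, which shifted the genes by a median of -0.19 under TMM scaling. Cdc42 lay at -0.15 there, outside its interval. The lowest values across all fits were -0.13 for Rela and -0.22 for Traf2, also outside their intervals. In 59 of them the 95% interval of the log2 fold change lay within -0.5 and 0.5, and in 17 within -0.3 and 0.3, Rela, Traf2 and Mapk14 among these. In 7 it reached beyond 1 or -1, as in Tlr9 and Myl2, so a change of over 2-fold lies within the interval there. In 17 the single-gene interval did not include 0, although the adjusted p was not under 0.05. All 12 loaded samples lay on 1 side of the healthy median in 6 genes that did not pass: Tgfb2 above it, and Cxcr2, Kng1, Map3k5, Shc1 and Tnfsf14 below it.

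**Figure D4:**
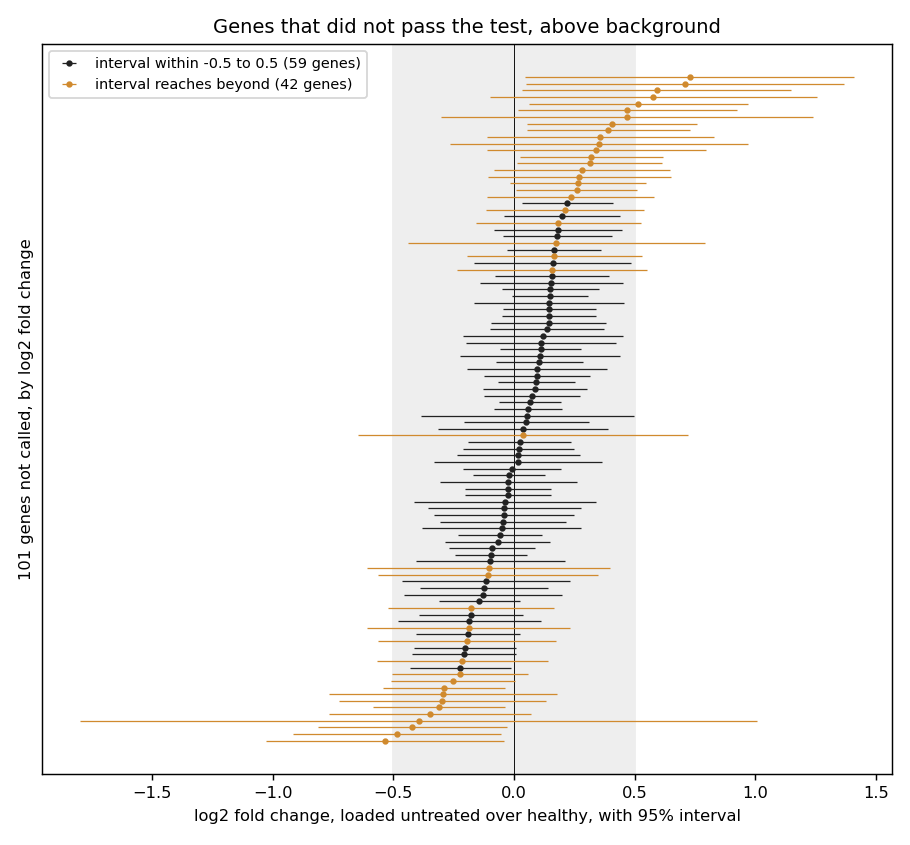
Log2 fold change of loaded untreated over healthy joints with its 95% interval for the 101 genes that did not pass the test and were above the negative controls in over 6 samples of each group, 1 line per gene, in order of fold change, with a grey band from -0.5 to 0.5. For 59 genes (black) the whole interval lies inside the band, and for 42 (orange) it reaches beyond it.

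The 52 genes that were not tested were near background: 24 of them were above the negative controls in 0 of the 24 samples, and 39 in at most 3. Besides most T-cell cytokines they include the complement genes C8a, C8b, C9 and Hc, the chemokine genes Ccl17 and Ccl20, and Tlr3. Without the filter, in the same test adjusted over all 248 genes, 6 of them were called. Cxcr1 and Il11 were higher and C8b, Ccl24, Il2 and Lta lower in loaded joints. Only Cxcr1 was above the negative controls in over 6 samples of a group, in 9 of 12 loaded samples, against 2 of 12 healthy samples, and C8b and Il2 were above them in none.

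The samples of a group were not alike. Healthy replicates 5 and 7, singled out after their values were seen, lay above the loaded median for 12 and 9 of the 62 genes that rose, and held the highest healthy value for 23 and 21 of them. For the 17 interferon genes, the mean log2 level relative to the healthy mean was 0.83 to 2.07 in loaded samples (median 1.34) and -0.57 to 1.18 in healthy samples (median -0.15), and healthy replicates 5 and 7, at 1.18 and 0.75, were the highest of their group. The level of healthy replicate 5 lay inside the loaded range, and the others lay below it. For the 13 CC chemokine genes the same measure was 0.64 to 2.08 in loaded samples and -0.62 to 0.98 in healthy samples, with healthy replicates 5 and 7 again on top. Without healthy replicate 5 the number of genes whose groups did not overlap was 15 in place of 5, and without healthy replicate 7 it was 10. Loaded replicate 6 was the opposite case: it was the lowest loaded sample for 26 of the 62 genes and fell below the healthy median for 6 of them, such as Cxcl2, Cfb, Jun and Ly96. Loaded replicate 8 was the highest loaded sample for 30 of the 62. Healthy replicates 2 and 5 lay below the loaded median for 15 and 13 of the 29 genes that fell.

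**Figure D5:**
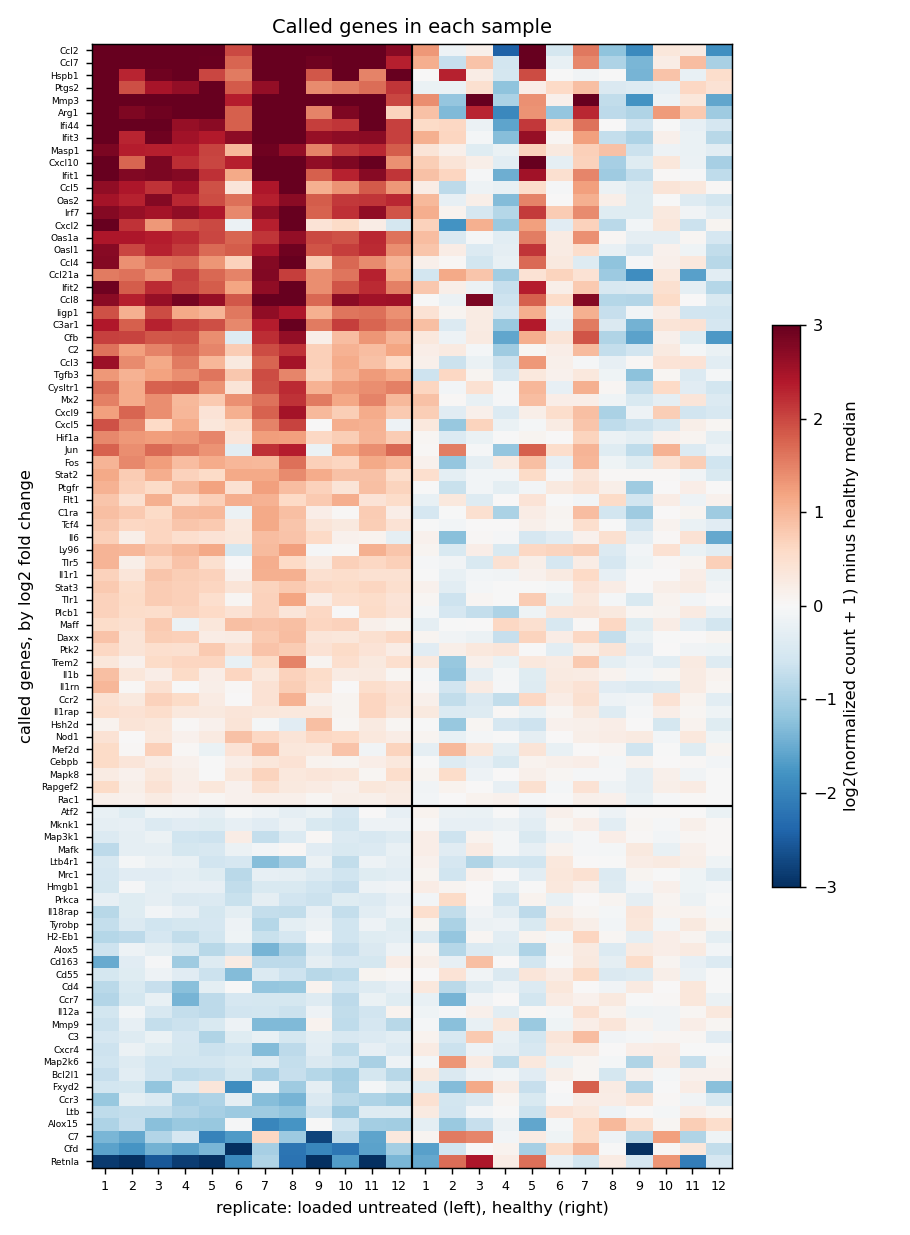
Log2(normalized count + 1) minus the healthy median, as colour, for the called genes named in the text (down the page, by log2 fold change, with a line between genes that rose and genes that fell) in each replicate of the loaded untreated joints (left block) and the healthy joints (right block). Healthy replicate 5 is red for many genes that rose, and loaded replicate 6 is paler than the other loaded samples.

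Healthy joints were the more variable group. Over the 196 genes the median SD of log2(normalized count + 1) was 0.29 in loaded joints and 0.39 in healthy joints, and it was the larger in healthy joints for 150 genes. Depth differed between the groups, with total gene counts of 111645 to 229976 in loaded joints (median 162624) and 36415 to 217805 in healthy joints (median 113746). In the 118 genes with a median raw count of at least 100 in both groups the SD was still the larger in healthy joints for 89, at a median of 0.26 in loaded and 0.33 in healthy joints. Without healthy replicate 4, which had the lowest total, these were 89 genes and 0.32. Negative controls averaged 5.75 to 10.2 counts in loaded and 4.25 to 9.88 counts in healthy samples.

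The scaling set part of the split. The median log2 fold change of all 196 genes moved by -0.19 under TMM scaling, where 47 genes rose and 51 fell, against 47 and 50 with DESeq2 size factors and 51 and 45 with total-count scaling. Of the 6 scaling genes, Gusb lay 0.45 higher on the log2 scale in loaded than in healthy joints, Hprt differed by -0.31 and Tubb5 by -0.18, while Cltc, Gapdh and Pgk1 differed by 0.03, 0.01 and 0.00. The 12 interferon genes, Ccl2, Ccl7, Mmp3, Hspb1, Stat3 and Tgfb3, which rose, and Retnla, Cfd, Bcl2l1 and Ltb, which fell, kept their direction and call under all of these. Calls of increases that ended under TMM scaling were those of Ccr2, Cebpb, Hsh2d, Il1b, Il1rn, Il6, Jun, Ly96, Maff, Mapk8, Mef2d, Nod1, Rac1, Rapgef2 and Trem2. Jun had the largest fold change of these and kept a log2 fold change of 0.72 under TMM scaling (adjusted p = 0.0696). Calls of decreases that ended without Gusb were those of Atf2, Cd163, Cd55, Fxyd2, Hmgb1, Il18rap, Ltb4r1, Mafk, Map3k1, Mknk1, Mmp9, Mrc1 and Prkca.

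Of the 91 calls, 18 were lost when 1 sample or another was left out, that of Mmp9 among them. The call of Ccr2 was lost without loaded replicate 8 (adjusted p = 0.0656) or healthy replicate 4 (0.0504), that of Jun without loaded replicate 7 (0.0521) or 8 (0.0599), that of Trem2 without loaded replicate 8 (0.0869), that of Il1rn without loaded replicate 1 (0.0555) and that of Rac1 without healthy replicate 9 (0.0640). Mknk1 was lost without loaded replicate 10 (0.0521), healthy replicate 7 (0.0534) or healthy replicate 11 (0.0513). The remaining calls of this kind were less settled still. Leaving out any 1 of 6 samples ended those of Il1b and Ly96, any of 7 those of Il6 and Fxyd2, any of 8 that of Cebpb and any of 10 that of Mef2d. For Hsh2d, Map3k1, Ltb4r1, Cd163 and Cd55 the numbers were 12, 13, 14, 15 and 17. The highest adjusted p among them was 0.194, for Fxyd2.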

How the data were processed

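The deposited table holds raw counts of 268 probes, as whole numbers. Of these probes, 248 are for endogenous genes, 6 for housekeeping genes, 6 are positive and 8 negative controls. Normalization and background subtraction by the authors are not given in the sources used here. No value was 0. Of the gene symbols, 248 matched the RefSeq table of GRCm38.p6 by symbol and 6 by synonym.

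From these counts, a factor per sample was formed as the geometric mean of the 6 housekeeping genes. A gene entered the test if its count exceeded 20 in 12 or more of the 48 samples. The test was edgeR's quasi-likelihood test (edgeR 4.0.16, R 4.3.3), fitted to all 4 groups of 12, with the contrast of loaded untreated minus healthy joints. Adjusted p-values are those of Benjamini and Hochberg across 196 genes. Standard errors and 95% intervals come from the same fit. The limit of the negative controls in a lane was their mean plus 2 SD, and a count over it was taken as above them. Where at most 6 of 12 samples of a group were above them, the fold is a lower bound, with that group's values raised to the limit. Counts carry counting error as well as sample spread, and none of 132 pairs of samples within a group agreed within counting noise.

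The test script was tested on simulated data. The genes were grouped by role, and the members and lists were chosen with earlier results of these data known. In each group the text gives in full up to 3 called genes with the smallest p in each direction, the other called genes by their fold change, and of the others those with the narrowest and the widest intervals. A pair of tested genes is counted but not named. Other scalings were tried (TMM, DESeq2 size factors, total counts, and 5 of the 6 housekeeping genes at a time), as were other filters (none, or over 50 counts), fits of only the healthy and untreated samples, and a prior subtraction of the mean negative control. Further alternatives were the Wald test in DESeq2 1.42.0, limma 3.58.1 (pseudocounts 1 and 10, and array weights), a replicate block, a covariate (log2 Myl2), and fits that left out libraries with divergent housekeeping genes or each sample in turn.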

Additional observations from a re-analysis of the deposited data

Results flagged for a closer look

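Among the 52 genes that were too low to be tested, 3 were above the negative controls in over 6 of 12 loaded samples. Cxcr1, a receptor for neutrophil-attracting chemokines, was above them in 9 of 12 loaded samples, against 2 of 12 healthy samples, with medians of 13.7 normalized counts in loaded and 9.63 in healthy joints. Map3k9, a kinase upstream of JNK, was above them in 8 of 12 loaded samples, against 2 of 12 healthy samples (medians 14.9 in loaded and 9.97 in healthy joints). Twist2, a transcription factor of mesenchymal cells, was above them in 7 of 12 loaded samples, against 4 of 12 healthy samples (medians 13.9 in loaded and 11.97 in healthy joints). Total counts were also higher in loaded joints, with medians of 162624 and 113746, and more genes lay above the negative controls there, with medians of 200.5 and 189 per sample. Their part in these values was not tested.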

How the results depend on the processing

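The 91 calls became 98 under TMM scaling (47 higher, 51 lower), 97 with DESeq2 size factors (47 and 50), 96 with total-count scaling (51 and 45), 85 without Gusb (69 and 16) and 140 in limma with array weights (92 and 48). Genes whose groups did not overlap numbered 10, 8 and 9 under the first 3 scalings, against 5, and the median log2 fold change of all tested genes was -0.050, -0.037 and 0.0034, against 0.15. The other alternatives gave 87 to 110 calls. The 110 (69 higher, 41 lower) came from the fit without libraries with divergent housekeeping genes, healthy replicate 2 among them. When single samples were left out, calls ranged from 79 to 96, those higher from 56 to 70, those lower from 23 to 35, genes without overlap from 5 to 15 and the median log2 fold change from 0.13 to 0.17. Of the 91 calls, 63 held in every one of the 21 alternatives that tested them and with each of the 24 samples left out (Masp1, Cxcl2, Ccl4 and Tlr5 were not tested in 1 or 2 of the 21), and 73 held whichever sample was left out. Of the 105 genes not called, 43 were not called in any of these fits. The log2 fold change of Cdc42 was -0.15 under TMM scaling and -0.13 with DESeq2 size factors, and that of Rac1 was -0.074 under TMM scaling, -0.061 with DESeq2 size factors and -0.024 with total-count scaling, against positive values with housekeeping scaling. With a replicate block 89 genes were called, 63 higher and 26 lower, of which 86 were among the 91, and the median log2 fold change was 0.17. Same-numbered samples did not deviate together, with correlations of -0.60 to 0.59 (median 0.02), 6 of 12 over 0.1, and 3 loaded samples that correlated best with their own number, so the numbers are not read as pairs. Subtracting the negative control mean raised the fitted log2 fold changes of genes near background, to 4.07 for Ptgs2, 3.92 for Masp1, 2.89 for Cxcl2, 2.61 for Ccl4 and 1.37 for Il6. The limits of depth lie there, since genes near the negative controls have at most a bound. The cause of each change with scaling was not tested.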
